A study of Mus musculus with 12 samples.

Results

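The genes described here encode enzymes of nucleotide synthesis and one-carbon metabolism. A list of 36 gene symbols was looked up in the deposited table, and all 36 were found among its 11022 genes. They were sorted by role into 5 folate, 13 purine, 7 pyrimidine and 7 deoxynucleotide genes, and 4 genes that serve both the purine and the pyrimidine branch. The samples were 12 cultures of mouse cytotoxic T lymphocytes (CTL), which are CD8+ T cells armed to kill, 3 cultures in each of 4 groups. All carried the LCMV-P14 TCR transgene, so that nearly every cell recognises the viral peptide gp33-41, and all were kept in interleukin 2 at 20 ng/mL up to and through the assay on day 7. The Unstimulated group received no peptide. The TCR group received gp33-41 at 100 ng/mL for 4 h. The other two groups received the same peptide with IC87114 at 10 µM, which blocks the p110δ form of the lipid kinase PI3K, or with PD184252 at 2 µM, an inhibitor of the kinase MEK, which activates ERK. The study's methods give 3 biological replicates grown from the lymphoid organs of female mice, with DMSO as vehicle, and no sort before RNA was taken.

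Cells build purine rings and the pyrimidine ring of UMP on ribose phosphate, and they recycle free bases and nucleosides by salvage. Folate enzymes in mitochondria and cytosol move carbon from serine to formyl and methylene groups, which the purine pathway and thymidylate synthase consume. Ribonucleotide reductase then turns ribonucleotides into the deoxynucleotides needed for DNA, and its small subunit and cytosolic thymidine kinase are known for being most abundant in S phase. T cells that divide after meeting antigen depend on these routes.

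Values are FPKM, fragment counts scaled for exon length and library size, so that levels can be compared between genes. Total reads per culture were not in the table used, so depth could not be stated. FPKM summed to between 470420 and 666922 per culture, 2 to 73 genes per culture were listed at 0, and replicates of a group correlated across genes with r of 0.9925 to 0.9946. Of 6 markers of T cells and CTL 5 had values, Cd3e, Cd8a, Cd8b1, Gzmb and Prf1, and all were abundant. Of 12 markers of other cells 3 had values, Cd4, Itgax and Epcam, and their summed FPKM ran from 1.48 to 1.91 in Unstimulated, 4.15 to 4.51 in TCR, 4.23 to 6.13 with the PI3K inhibitor and 0.98 to 1.35 with the MEK inhibitor. That list thus moved with the groups at very low levels, and its part in the results was not tested. In RNA from whole cultures, fewer cells expressing a gene and less RNA per cell cannot be told apart.

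The first comparison asked how the enzyme genes changed when CTL met antigen again. After 4 h of TCR triggering 9 of the 36 genes had risen, 17 had fallen and 10 did not pass the test (limma, adjusted p under 0.05). Of all genes tested, 33.6% rose and 34.9% fell by the same rule, and the median log2 fold change was -0.07 for the 36 genes and -0.01 for all genes. With a change of more than 2-fold required as well, 1 gene rose (Mthfd2) and 5 fell (Rrm2, Tk1, Rrm1, Ctps2 and Prps2), where 8.87% and 11.1% of all genes did. For each called gene the 3 TCR cultures lay entirely on one side of the 3 Unstimulated cultures. The genes were called from these same cultures, so this separation is not separate evidence. Its share over all genes was not counted.

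These counts depend on how the libraries were scaled. Rescaling every culture to the same FPKM sum moved the median gene to a log2 change of -0.41, and 4 of the 36 genes were then called higher and 27 lower. The 4 still higher were Mthfd2, Shmt2, Adss and Ctps, and the 10 genes that had not passed were all called lower. This rescaling multiplies each culture by a constant, so all genes shift nearly alike and positions against the median gene could hardly change. Relative to that gene no member moved by more than 0.011, and on either scale 15 of the 36 lay above it. Quantile normalisation can change these positions. It moved a member by up to 0.404 relative to the median gene, and 11 of the 36 then lay above it.

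**Figure D1:**
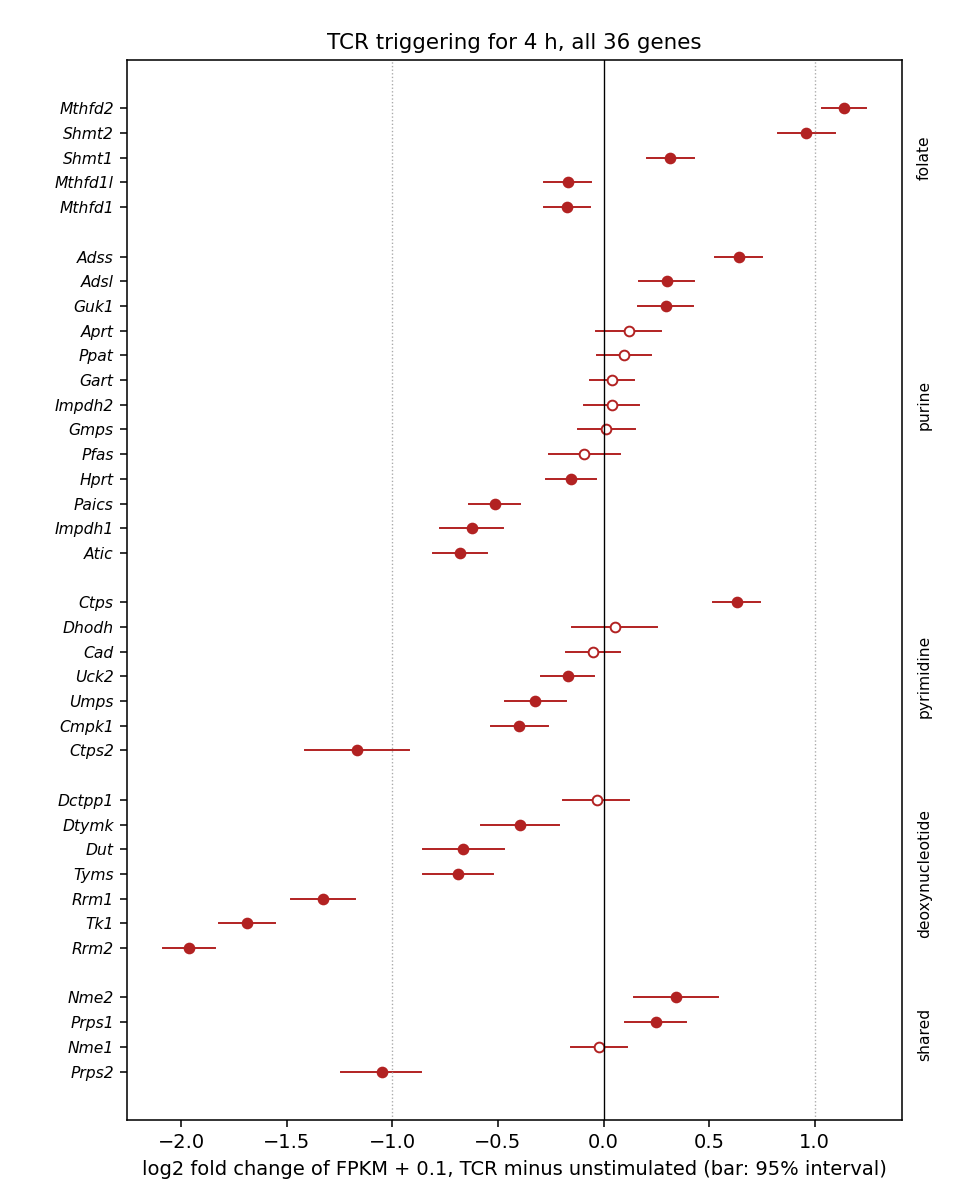
Log2 fold change of FPKM + 0.1 (x axis), TCR minus Unstimulated, for the 36 genes grouped by role (y axis). Points are estimates from 3 cultures per group, bars 95% intervals, filled points adjusted p under 0.05, dotted lines a 2-fold change. Deoxynucleotide genes lie between -1.96 and -0.03, while Mthfd2 and Shmt2 stand at 1.14 and 0.96.

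The deoxynucleotide class mostly went down. Of its 7 members 6 fell with TCR triggering, none rose (limma, and 0 at an unadjusted p under 0.05), and Dctpp1 did not pass. Over all genes 34.9% fell and 33.6% rose. The class median was -0.69, and the summed FPKM of the class went from 574 ± 34.3 to 264 ± 10.2 (SD, n = 3). Of the 7 pyrimidine genes, described below, 4 also fell and 1 rose.

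Rrm2, the small subunit of ribonucleotide reductase (Entrez gene 20135, chromosome 12, 24708241 to 24714146), stood at 206, 218 and 226 FPKM in the Unstimulated cultures and at 51.6, 54.6 and 60.4 in TCR. It was at 63.3, 64.3 and 63.8 FPKM with the PI3K inhibitor and at 75.9, 77.0 and 79.9 with the MEK inhibitor. The 3 peptide-treated groups did not overlap each other and all lay far below the Unstimulated cultures. Rrm2 fell 3.90-fold with TCR triggering (log2 fold change -1.96, SE 0.06, adjusted p = 4.93e-13), the largest change among the 36 genes.

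Rrm1, the large subunit (Entrez gene 20133, chromosome 7, 102441695 to 102469771), was at 77.5, 78.0 and 83.2 FPKM in Unstimulated and at 28.2, 33.1 and 33.8 in TCR. Its cultures with the PI3K inhibitor read 36.2, 41.7 and 39.1 FPKM, and those with the MEK inhibitor 41.2, 41.5 and 41.6. Again no TCR culture reached any culture of the other groups. The fall was 2.51-fold (log2 -1.33, SE 0.07, adjusted p = 3.22e-10). Rrm2 FPKM was 2.72 ± 0.06 times Rrm1 FPKM in Unstimulated and 1.76 ± 0.09 times in TCR.

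Tk1, the cytosolic thymidine kinase that salvages thymidine (Entrez gene 21877, chromosome 11, 117815526 to 117826092), stood at 78.3, 82.5 and 83.8 FPKM in Unstimulated and at 25.1, 23.9 and 26.7 in TCR. With the PI3K inhibitor it was at 23.6, 23.2 and 23.4 FPKM and with the MEK inhibitor at 34.6, 39.8 and 37.7. Its level with the MEK inhibitor lay above both other peptide-treated groups. TCR triggering lowered it 3.23-fold (log2 -1.69, SE 0.06, adjusted p = 4.31e-12). Its exons overlap those of Afmid on the opposite strand by 83 bases, and whether reads were counted by strand is not given in the sources used here.

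The other members that fell did so by less. Tyms, thymidylate synthase, which makes dTMP from dUMP with a folate cofactor, went from 15.9 ± 0.76 to 9.84 ± 0.41 FPKM (log2 -0.69, adjusted p = 1.51e-06). Dut, which hydrolyses dUTP, went from 77.7 ± 13 to 48.6 ± 0.32 FPKM (log2 -0.66). Dtymk, the kinase that converts dTMP to dTDP, went from 34.9 ± 1.57 to 26.6 ± 2.14 FPKM (log2 -0.40). Dctpp1, which hydrolyses dCTP, had means of 67.8 and 66.4 FPKM with overlapping cultures (log2 -0.03, 95% interval -0.19 to 0.12).

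Genes of DNA replication outside the list moved in the same direction. All 12 genes of an S phase list, among them the Mcm2 to Mcm7 helicase and Pcna, fell with TCR triggering, where 34.9% of all genes did. The summed FPKM of the 12 went from 1022.7 to 1054 in Unstimulated to 447 to 471 in TCR. E2f1, a transcription factor of that phase, went from 22.0 ± 1.58 to 8.80 ± 0.70 FPKM (log2 -1.32, adjusted p = 1.64e-08). The part of cell cycle position in the fall of the deoxynucleotide genes was not tested.

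Since these genes fell together, their promoters were read from RefSeq (build GRCm38.p6), which held a window from 250 bases before to 50 bases after the start for 34 of the 36 genes. Each window was searched on both strands for CACGTG (the E-box that MYC family factors bind, which is its own reverse complement), TGATGCA (part of the ATF4 element) and TTCCCGC (an E2F-type site). No letters of these motifs overlapped in the windows printed. CACGTG stood in 6 of the 34 windows (17.6%) and in 12.2% of the windows of the 8332 genes of the table that have one. TTCCCGC stood in 5 (14.7%, against 10.4%) and TGATGCA in 1, that of Guk1 (2.94%, against 2.41%).

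The stretches from 250 to 51 bases before the start are shown for the ribonucleotide reductase genes, for the deoxynucleotide genes that held a motif and, for contrast in direction, for Shmt2, which rose. Capitals mark TTCCCGC in Rrm1 and CACGTG in Tyms and Dtymk, and Rrm2 and Shmt2 held none of the letters searched. No annotated exon of GENCODE M21 lies in any of the 5 stretches. Each is read on the strand of its gene.
Rrm1 (chr7:102441445-102441644, plus strand): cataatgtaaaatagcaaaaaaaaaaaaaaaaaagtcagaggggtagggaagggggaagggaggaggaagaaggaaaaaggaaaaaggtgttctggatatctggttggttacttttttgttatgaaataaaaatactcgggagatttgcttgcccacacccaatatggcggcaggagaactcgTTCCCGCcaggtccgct
Rrm2 (chr12:24708004-24708203, plus strand): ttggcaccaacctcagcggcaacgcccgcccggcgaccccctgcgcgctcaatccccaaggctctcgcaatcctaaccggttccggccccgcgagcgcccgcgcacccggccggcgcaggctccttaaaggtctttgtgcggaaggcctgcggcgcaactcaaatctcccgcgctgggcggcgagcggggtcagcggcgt
Tyms (chr5:30073676-30073875, minus strand): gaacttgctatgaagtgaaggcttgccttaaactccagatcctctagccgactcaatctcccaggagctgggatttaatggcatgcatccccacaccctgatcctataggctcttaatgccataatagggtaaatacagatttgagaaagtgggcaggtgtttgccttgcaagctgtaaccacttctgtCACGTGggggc
Dtymk (chr1:93801985-93802184, minus strand): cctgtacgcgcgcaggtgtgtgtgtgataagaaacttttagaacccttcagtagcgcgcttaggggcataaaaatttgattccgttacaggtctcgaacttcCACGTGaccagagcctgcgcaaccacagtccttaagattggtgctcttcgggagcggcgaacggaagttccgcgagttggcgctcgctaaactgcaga
Shmt2 (chr10:127522495-127522694, minus strand): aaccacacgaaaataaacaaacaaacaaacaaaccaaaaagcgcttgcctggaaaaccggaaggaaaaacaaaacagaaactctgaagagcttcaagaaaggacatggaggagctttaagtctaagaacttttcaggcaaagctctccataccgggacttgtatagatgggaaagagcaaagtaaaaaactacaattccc

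A match describes these letters only, and its absence says nothing about binding of a factor elsewhere. Of the 7 deoxynucleotide genes 2 held CACGTG and 1 held TTCCCGC, while Rrm2 and Tk1, which fell most, held neither. None of the 5 folate genes held CACGTG, and 1, Mthfd1, held TTCCCGC.

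**Figure D2:**
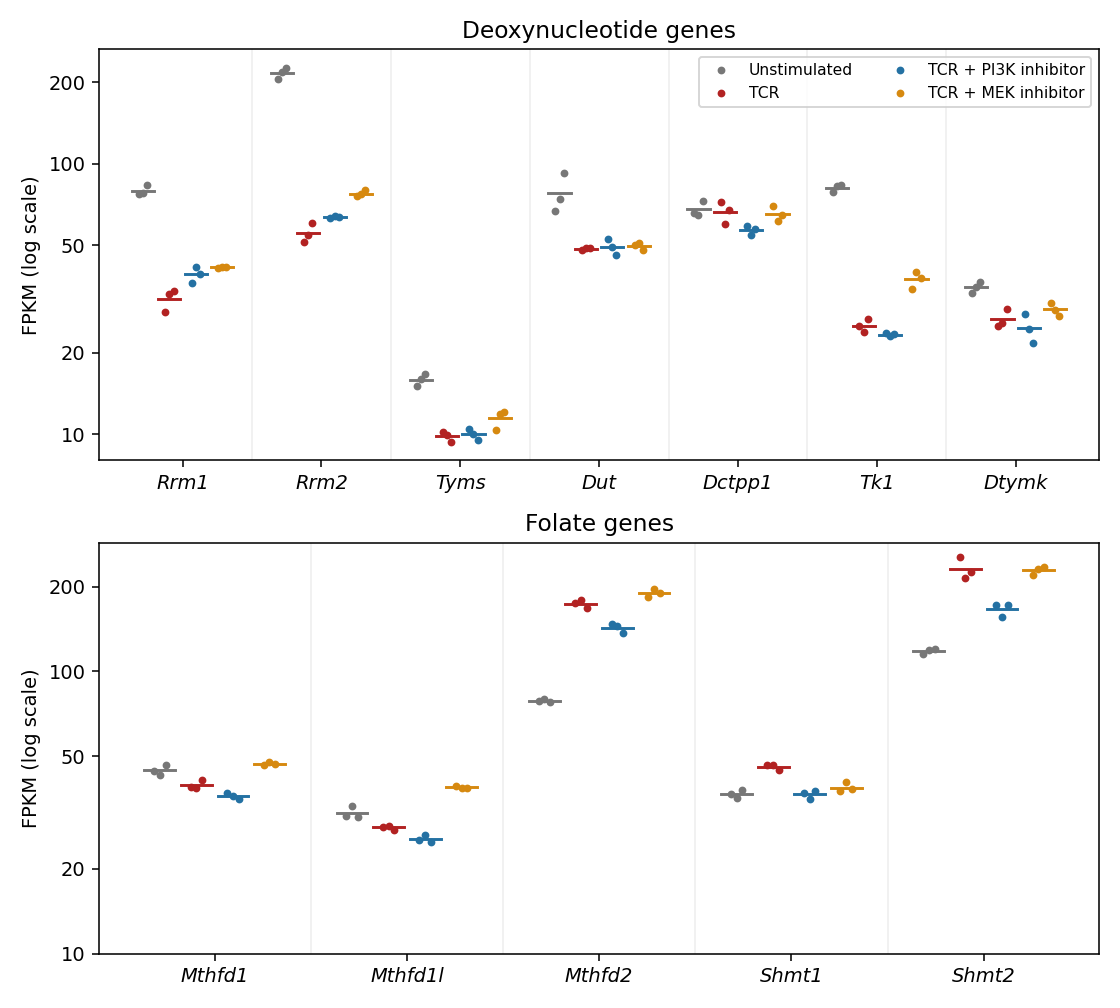
FPKM (y axis, log scale) of the deoxynucleotide genes (upper panel) and the folate genes (lower panel) in each of the 12 cultures. Points are cultures, lines the mean of 3, colours the 4 groups. Rrm1, Rrm2 and Tk1 drop in every peptide-treated culture, and Mthfd2 and Shmt2 are above their Unstimulated values in all 9.

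Of the 5 folate genes 3 rose and 2 fell, where 33.6% and 34.9% of all genes did. Mthfd2 and Shmt2 rose with TCR triggering, Shmt1 rose except on the common FPKM sum, and Mthfd1 and Mthfd1l fell slightly. The summed FPKM of the 5 genes went from 310.4 ± 3.72 to 519 ± 21.3.

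Mthfd2, a mitochondrial methylenetetrahydrofolate dehydrogenase that is low in most resting adult tissues (Entrez gene 17768, chromosome 6, 83305691 to 83325908), was at 78.7, 80.1 and 77.7 FPKM in Unstimulated and at 175, 179 and 167 in TCR. It stood at 147, 145 and 137 FPKM with the PI3K inhibitor and at 183, 196 and 189 with the MEK inhibitor. The 4 groups did not overlap, with Unstimulated lowest and the MEK inhibitor highest. Mthfd2 rose 2.20-fold with TCR triggering (log2 1.14, SE 0.05, adjusted p = 2.88e-11). It remained called on the other scalings but within 2-fold, at 0.73 on the log2 scale on the common FPKM sum and 0.95 after quantile normalisation.

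Shmt2, the mitochondrial serine hydroxymethyltransferase that takes the carbon from serine (Entrez gene 108037, chromosome 10, 127517123 to 127522444), stood at 116, 119 and 120.4 FPKM in Unstimulated and at 254, 215 and 224 in TCR. It was at 173, 156 and 172 FPKM with the PI3K inhibitor and at 221, 231 and 235 with the MEK inhibitor. The TCR cultures and those with the MEK inhibitor overlapped, and those with the PI3K inhibitor lay between them and the Unstimulated cultures. The rise was 1.95-fold (log2 0.96, SE 0.06, adjusted p = 3.87e-09), and without TCR replicate 2 it was 1.01 on the log2 scale, just past 2-fold.

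Shmt1, the cytosolic form, was at 36.8, 35.7 and 38.1 FPKM in Unstimulated and at 46.6, 46.5 and 44.7 in TCR. It rose 1.24-fold (log2 0.32, SE 0.05, adjusted p = 7.56e-05), but on the common FPKM sum its log2 change turned to -0.10. The Shmt2 to Shmt1 ratio of FPKM went from 3.21 ± 0.11 to 5.03 ± 0.42.

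Mthfd1, the cytosolic enzyme that interconverts folate forms, was at 44.3, 43.1 and 46.8 FPKM in Unstimulated and at 38.9, 38.8 and 41.3 in TCR. Mthfd1l, which releases formate in mitochondria, was at 30.8, 33.3 and 30.5 FPKM in Unstimulated and at 28.1, 28.4 and 27.6 in TCR. Both were lower in every TCR culture, by -0.17 each on the log2 scale (adjusted p = 0.00716 and 0.0101). For Mthfd1l the call was lost without Unstimulated replicate 2, where its log2 change was -0.13 (adjusted p = 0.0584).

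Purine genes moved both ways. Of 13 members 3 rose (Adss and, except on the common FPKM sum, Adsl and Guk1), 4 fell (Atic, Impdh1, Paics and Hprt) and 6 did not pass, with a class median of 0.04. Over all genes 33.6% rose and 34.9% fell, so this split does not set the class apart. The summed FPKM of the class was 931 ± 21.8 in Unstimulated and 899 ± 15.5 in TCR.

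On the way to IMP, the first purine nucleotide, Paics and Atic fell, while Adsl rose except on the common FPKM sum. Atic, which adds the last formyl carbon and closes the ring (Entrez gene 108147, chromosome 1, 71557150 to 71579631), was at 64.3, 65.2 and 67.5 FPKM in Unstimulated and at 38.7, 40.1 and 44.2 in TCR. It was at 42.6, 40.1 and 39.3 FPKM with the PI3K inhibitor and at 52.6, 54.0 and 56.6 with the MEK inhibitor. The MEK inhibitor cultures thus lay between the Unstimulated cultures and those of the other two groups. Atic fell 1.60-fold with TCR triggering (log2 -0.68, SE 0.06, adjusted p = 8.54e-08).

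Paics, which joins carboxylation and aspartate addition in a single protein, went from 87.6 ± 5.74 to 61.1 ± 1.79 FPKM (log2 -0.52, adjusted p = 1.16e-06). Ppat, the amidotransferase that commits ribose phosphate to the pathway, had means of 29.5 and 31.6 FPKM and did not pass (log2 0.10, 95% interval -0.03 to 0.23). Exons of Ppat and Paics overlap by 272 bases on opposite strands. Gart, a multifunctional enzyme of the pathway, had means of 68.7 and 70.6 FPKM (log2 0.04), and Pfas, the FGAM synthase, 13.5 and 12.7 FPKM (log2 -0.09). Adsl, adenylosuccinate lyase, which acts both before IMP and in making AMP, went from 64.7 ± 0.93 to 79.7 ± 3.84 FPKM (log2 0.30, adjusted p = 5.32e-04), and turned to -0.11 on the common FPKM sum.

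Adss, which acts beyond IMP and opens the branch to AMP (Entrez gene 11566, chromosome 1, 177762962 to 177796511), was at 45.1, 45.0 and 46.2 FPKM in Unstimulated and at 68.8, 75.1 and 68.9 in TCR. With the PI3K inhibitor it read 63.3, 68.3 and 63.9 FPKM and with the MEK inhibitor 68.1, 71.6 and 70.4, both well above Unstimulated. The rise with TCR triggering was 1.56-fold (log2 0.64, SE 0.05, adjusted p = 4.19e-08).

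Impdh1 and Impdh2 encode IMP dehydrogenase, the entry to the guanine branch. Impdh1 was at 90.5, 92.0 and 89.3 FPKM in Unstimulated and at 59.9, 56.0 and 60.3 in TCR, a fall of 1.54-fold (log2 -0.63, SE 0.07, adjusted p = 1.21e-06). Impdh2 was at 126, 123 and 144 FPKM in Unstimulated and at 140.3, 129 and 133 in TCR, with overlapping groups (log2 0.04, SE 0.06, adjusted p = 0.583), and its log2 change was -0.37 on the common FPKM sum, -0.15 after quantile normalisation and -0.00 without Unstimulated replicate 2. The Impdh2 to Impdh1 ratio went from 1.45 ± 0.15 to 2.29 ± 0.07. Of the 100-base stretches of Impdh2 transcripts 31.4% also occur in the pseudogene Impdh2-ps, so its level is uncertain.

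Gmps, which makes GMP, had means of 32.1 and 32.4 FPKM with overlapping cultures. Guk1, the kinase that converts GMP to GDP, went from 22.4 ± 0.90 to 27.6 ± 1.36 FPKM (log2 0.29, adjusted p = 5.72e-04), but its log2 change was -0.12 on the common FPKM sum. Among the salvage enzymes, Hprt, for guanine and hypoxanthine, went from 138 ± 7.17 to 124 ± 3.61 FPKM (log2 -0.15, adjusted p = 0.0219). That call was lost without TCR replicate 1, TCR replicate 3 or Unstimulated replicate 3 (adjusted p = 0.069, 0.051 and 0.0963). Aprt, for adenine, stood at 148, 137 and 142 FPKM in Unstimulated and at 165, 139 and 161 in TCR and did not pass (log2 0.12, adjusted p = 0.156), though it did without TCR replicate 2 (log2 0.20, adjusted p = 0.0217).

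Of the 7 pyrimidine genes Ctps rose, Ctps2, Cmpk1, Umps and Uck2 fell, and Cad and Dhodh did not pass, with a class median of -0.17. Their summed FPKM was 347 ± 11.8 in Unstimulated and 327 ± 3.70 in TCR. Over all genes 33.6% rose and 34.9% fell.

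Ctps, a synthase that makes CTP from UTP (Entrez gene 51797, chromosome 4, 120539868 to 120570276), was at 45.9, 48.4 and 49.2 FPKM in Unstimulated and at 74.6, 77.3 and 70.3 in TCR. With the PI3K inhibitor it was at 58.8, 58.1 and 55.9 FPKM and with the MEK inhibitor at 61.9, 64.5 and 62.5, each between the TCR and Unstimulated cultures without overlap. Ctps rose 1.55-fold (log2 0.63, SE 0.05, adjusted p = 4.42e-08).

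Ctps2, the second CTP synthase (Entrez gene 55936, X chromosome, 162901238 to 163032508), was at 5.17, 4.88 and 5.56 FPKM in Unstimulated and at 2.37, 2.38 and 2.04 in TCR. With the PI3K inhibitor it read 2.60, 3.11 and 2.98 FPKM and with the MEK inhibitor 2.59, 2.53 and 2.81. It was the least abundant of the 36 genes and opposite in direction to Ctps, falling 2.25-fold (log2 -1.17, SE 0.11, adjusted p = 3.37e-07). With a pseudocount of 1 in place of 0.1 its change was within 2-fold.

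The early enzymes moved little. Cad, the protein of the opening steps, had means of 38.5 and 37.2 FPKM (log2 -0.05, 95% interval -0.18 to 0.08), and Dhodh, the mitochondrial dihydroorotate dehydrogenase, 10.0 and 10.4 FPKM (log2 0.05, 95% interval -0.15 to 0.26). Umps, which completes UMP, went from 33.2 ± 2.46 to 26.5 ± 1.65 FPKM (log2 -0.32, adjusted p = 6.01e-04). Cmpk1, the UMP and CMP kinase, went from 92.2 ± 8.37 to 69.8 ± 3.22 FPKM (log2 -0.40, adjusted p = 5.51e-05). Uck2, which salvages uridine and cytidine, went from 120.3 ± 1.80 to 107 ± 1.41 FPKM (log2 -0.17, adjusted p = 0.0191), a call lost without TCR replicate 2 (adjusted p = 0.0527).

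Exon overlaps on the opposite strand touch other members too, by 1014 bases for Gart, 213 for Umps, 184 for Shmt1, 150 for Uck2 and 32 to 48 for Shmt2, Mthfd1 and Impdh2.

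**Figure D3:**
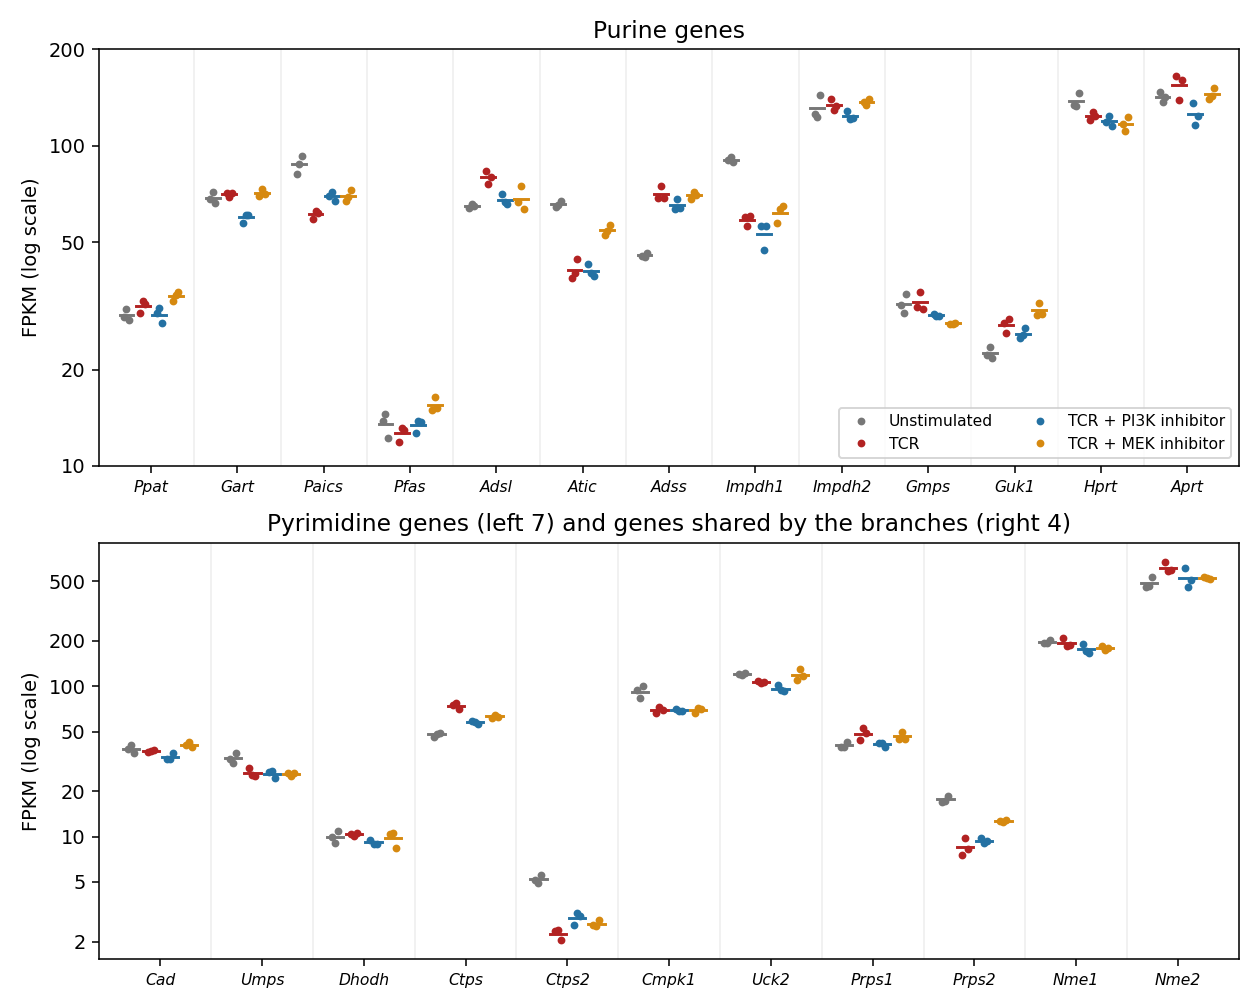
FPKM (y axis, log scale) of the purine genes (upper panel) and of the pyrimidine and shared genes (lower panel) in each of the 12 cultures. Points are cultures, lines the mean of 3, colours the 4 groups. Ctps and Ctps2 move apart after TCR triggering, as do Prps1 and Prps2.

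The remaining 4 genes make or finish precursors for both branches. Prps1 and Prps2 encode synthetases of phosphoribosyl pyrophosphate, the activated ribose. Prps1 was at 39.7, 39.7 and 42.8 FPKM in Unstimulated and at 44.1, 52.7 and 48.6 in TCR, 1.19-fold higher (log2 0.25, SE 0.07, adjusted p = 0.00485), with a log2 change of -0.16 on the common FPKM sum. Prps2 (Entrez gene 110639, X chromosome, 167346322 to 167382749) was at 16.9, 17.4 and 18.8 FPKM in Unstimulated and at 7.52, 9.80 and 8.24 in TCR. With the PI3K inhibitor it was at 9.81, 9.02 and 9.37 FPKM and with the MEK inhibitor at 12.8, 12.5 and 12.8. Prps2 fell 2.07-fold (log2 -1.05, SE 0.09, adjusted p = 6.54e-08), and without TCR replicate 1 the change was -0.97, within 2-fold.

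Nme1 and Nme2 encode nucleoside diphosphate kinases, which charge diphosphates to triphosphates. Nme2 was the most abundant of the 36 genes, at 455, 467 and 532 FPKM in Unstimulated and at 671, 585 and 590.0 in TCR (log2 0.34, SE 0.09, adjusted p = 0.00433), but its log2 change was -0.07 on the common FPKM sum and -0.10 after quantile normalisation. Nme1 was at 194, 194 and 204 FPKM in Unstimulated and at 211, 184 and 189 in TCR, with overlapping groups (log2 -0.02, SE 0.06, adjusted p = 0.768). Transcripts of the read-through gene Gm20390 share 44.5% of the 100-base stretches of Nme2 and 9.6% of those of Nme1, so both levels are uncertain.

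A ratio within a culture does not depend on library scaling. The Prps1 to Prps2 ratio was 2.35, 2.29 and 2.28 in Unstimulated and 5.87, 5.38 and 5.90 in TCR, a 2.48-fold change. The Ctps to Ctps2 ratio was 8.88, 9.91 and 8.85 in Unstimulated and 31.5, 32.5 and 34.5 in TCR, a 3.56-fold change. The Mthfd2 to Mthfd1 ratio was 1.77, 1.86 and 1.66 in Unstimulated and 4.51, 4.61 and 4.06 in TCR, a 2.49-fold change.

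All 7 ratios computed differed between Unstimulated and TCR without overlap, each with p = 0.1 in a two-sided exact permutation test, which is the smallest p that 3 against 3 cultures can give (0.156 after Benjamini-Hochberg adjustment over 28 tests). The ratios were formed from genes tested above in the same cultures, so their separation is not separate evidence. No other gene pairs were computed for comparison. Both inhibitors brought the Prps1 to Prps2 ratio down, to 4.28, 4.64 and 4.24 with the PI3K inhibitor and 3.50, 4.00 and 3.50 with the MEK inhibitor. The Ctps to Ctps2 ratio was 22.6, 18.7 and 18.8 with the PI3K inhibitor and 23.9, 25.5 and 22.2 with the MEK inhibitor. In both pairs the values with either inhibitor lay between Unstimulated and TCR (exact permutation p = 0.1 against TCR each time).

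**Figure D4:**
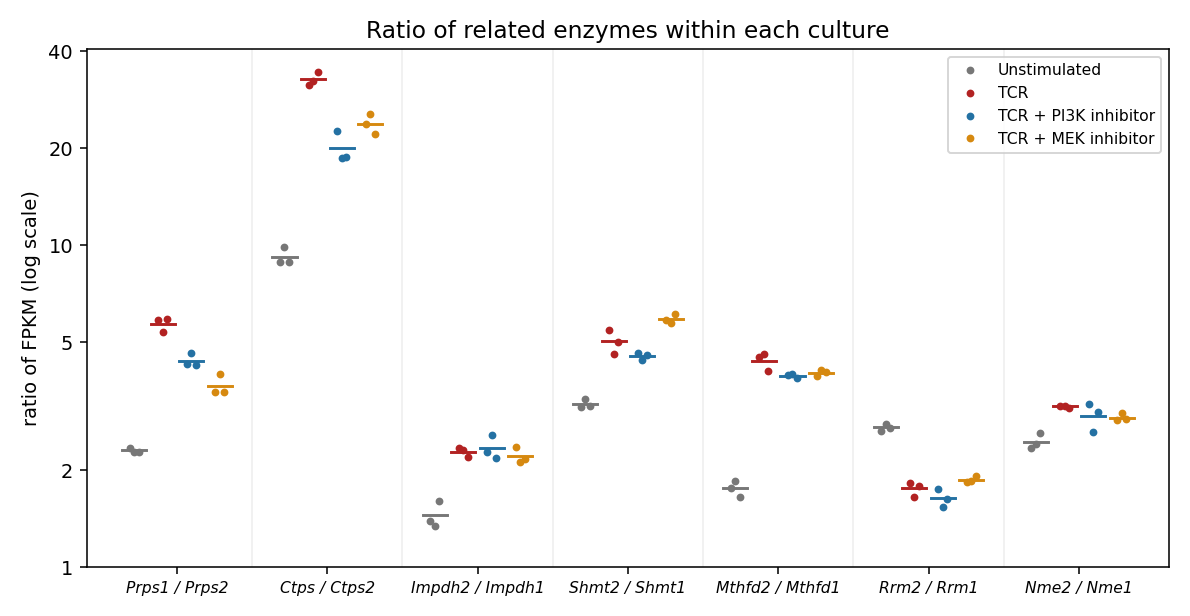
Ratio of FPKM of 2 related genes within each culture (y axis, log scale) for 7 pairs. Points are cultures, lines the mean of 3, colours the 4 groups. The ratio of Ctps to Ctps2 goes from a mean of 9.21 in Unstimulated to 32.8 in TCR, and the ratio of Rrm2 to Rrm1 goes down from 2.72 to 1.76.

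Of 80 further genes of these pathways 65 had values, and with TCR triggering 18 of them rose and 24 fell, 3 and 10 of them by more than 2-fold. The shares over all genes were 33.6% and 34.9%, and 8.87% and 11.1% past 2-fold. The 23 further folate and one-carbon genes rose more than they fell (12 against 3), while of 11 further deoxynucleotide genes 6 fell and none rose. Dck, deoxycytidine kinase, which salvages deoxynucleosides, was at 25.4, 25.9 and 26.5 FPKM in Unstimulated and at 6.0, 7.15 and 6.67 in TCR (log2 -1.96, SE 0.09, adjusted p = 6.31e-11). Gldc, glycine decarboxylase of the mitochondrial glycine cleavage system, was listed at 0 in all Unstimulated cultures and at 0.33, 0.35 and 0.46 FPKM in TCR.

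The second comparison asked how the genes differed when PI3K p110δ was inhibited during TCR triggering. No culture received an inhibitor without peptide. Effects on the response to peptide and on cells kept in interleukin 2 therefore cannot be told apart. The PI3K inhibitor group was compared with TCR, so the same TCR cultures serve here and in the comparison with Unstimulated. Of the 36 genes 9 were lower with the inhibitor, 4 were higher and 23 did not pass. Of all genes 12.8% were lower and 12.7% higher, and the median log2 fold change was -0.12 for the 36 genes and 0.02 for all. None of the 36 changed by more than 2-fold, where 1.88% of all genes did so in either direction, and the estimates ran from -0.47 to 0.34.

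On the common FPKM sum the median of all genes lay at 0.19, and 2 members were then called lower (Shmt2 and Ctps) and 10 higher, against 9 and 4. Relative to the median gene no member moved by more than 0.005, which such a rescaling fixes in advance. On either scale 8 of 36 lay above that gene. Quantile normalisation moved a member by up to 0.166 relative to it, and 12 then lay above. After quantile normalisation 4 were lower and 3 higher. The count of 4 higher genes went to 1 without TCR replicate 1 or PI3K inhibitor replicate 2, and to 2 without TCR replicate 3 or PI3K inhibitor replicate 3.

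The folate class had the lowest median of the classes, -0.28. Of its 5 members 3 were lower and none was higher (limma, also 0 at an unadjusted p under 0.05). Over all genes 12.8% were lower and 12.7% higher. On the common FPKM sum Shmt2 alone of the folate genes kept its call. The summed FPKM of the class was 408 ± 9.85 against 519 ± 21.3 in TCR, with 419, 399.7 and 407 in single cultures.

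Shmt2, whose values by culture stand above, was 1.38-fold lower with the inhibitor (log2 -0.47, SE 0.06, adjusted p = 1.20e-04), the largest decrease among the 36 genes, and was lower in all 3 same-numbered pairs. Shmt1 was at 37.2, 35.4 and 37.7 FPKM, close to its Unstimulated level of 36.9 ± 1.20 (log2 -0.32 against TCR, adjusted p = 4.61e-04). Mthfd2 stood at 181% of its Unstimulated mean with the inhibitor and at 221% without it (log2 -0.28, SE 0.05, adjusted p = 7.59e-04). For Shmt1 and Mthfd2 the direction held on the common FPKM sum but the call did not (adjusted p = 0.0604 and 0.134). Mthfd1 and Mthfd1l, at means of 36.3 and 25.6 FPKM, lay below every TCR culture but did not pass (adjusted p = 0.0839 and 0.0775).

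Among purine genes 3 were lower, Aprt, Gart and Adsl, and Paics was higher. Aprt stood at 136, 116 and 124 FPKM against 165, 139 and 161 in TCR (log2 -0.30, SE 0.07, adjusted p = 0.00657). Gart was at 59.8 ± 2.08 and Adsl at 67.6 ± 2.60 FPKM (log2 -0.24 each, adjusted p = 0.00249 and 0.0111). These 3 calls were lost on the common FPKM sum, with log2 changes of -0.12, -0.06 and -0.05. Paics was at 69.6 ± 2.26 FPKM (log2 0.19, adjusted p = 0.0252), a call lost without TCR replicate 1, TCR replicate 3 or PI3K inhibitor replicate 2 (adjusted p = 0.0865, 0.0559 and 0.0888). The other 9 did not pass, with means of 29.7 FPKM for Ppat, 13.4 for Pfas, 40.6 for Atic, 65.2 for Adss, 53.2 for Impdh1, 124 for Impdh2, 29.6 for Gmps, 25.8 for Guk1 and 119 for Hprt.

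In the pyrimidine class Ctps was 1.28-fold lower with the inhibitor (log2 -0.36, SE 0.05, adjusted p = 1.70e-04). Its mean lay 62.7% of the way from TCR to Unstimulated on the FPKM scale. Ctps2 was higher, with every culture above every TCR culture (log2 0.34, SE 0.11, adjusted p = 0.0401). That call was lost without TCR replicate 1 or 3 or without PI3K inhibitor replicate 2 or 3 (adjusted p of 0.0555, 0.142, 0.133 and 0.109). Quantile normalisation (adjusted p = 0.162) and a fit of the compared groups alone (adjusted p = 0.106) lost it as well. Cad at 33.7, Umps at 26.2, Dhodh at 9.16, Cmpk1 at 69.3 and Uck2 at 96.2 FPKM did not pass, although Uck2 was called lower without PI3K inhibitor replicate 1 (log2 -0.19, adjusted p = 0.0376).

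Both ribonucleotide reductase genes were higher with the inhibitor than in TCR. Rrm1 was 1.23-fold higher (log2 0.30, SE 0.07, adjusted p = 0.006), and Rrm2 1.15-fold (log2 0.20, SE 0.06, adjusted p = 0.0195). They still stood at 49.0% and 29.5% of their Unstimulated means. The call of Rrm2 was lost without TCR replicate 1 or 2 or without PI3K inhibitor replicate 2 or 3 (adjusted p of 0.0892, 0.0524, 0.0554 and 0.0516).

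Dctpp1 was lower, at 59.0, 54.5 and 57.4 FPKM (log2 -0.22, adjusted p = 0.0418), but only TCR replicate 2 and PI3K inhibitor replicate 1 could be left out without losing the call. Without TCR replicate 1 or 3 or PI3K inhibitor replicate 2 or 3 its adjusted p was 0.174, 0.104, 0.134 and 0.0846. Tk1 at 23.4, Tyms at 10.0, Dut at 49.3 and Dtymk at 24.7 FPKM did not pass. In the S phase list 5 of 12 genes were higher with the inhibitor and none lower (limma), where 12.7% and 12.8% of all genes were. E2f1 had a mean of 9.72 FPKM (log2 0.14, adjusted p = 0.326). The part of the S phase genes and E2f1 in the change of Rrm1 and Rrm2 was not tested.

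Prps1 was at 42.0, 41.8 and 39.7 FPKM, below all TCR cultures (log2 -0.23, SE 0.07, adjusted p = 0.0216). The call was lost without TCR replicate 2 or 3 or PI3K inhibitor replicate 3 (adjusted p = 0.0905, 0.0569 and 0.0806). Prps2 at a mean of 9.40, Nme1 at 177 and Nme2 at 524 FPKM did not pass. The Nme2 cultures with the inhibitor spread from 455 to 609.6 FPKM, and without PI3K inhibitor replicate 1 both Nme2 and Nme1 were called lower (adjusted p = 0.00587 and 0.0372).

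**Figure D5:**
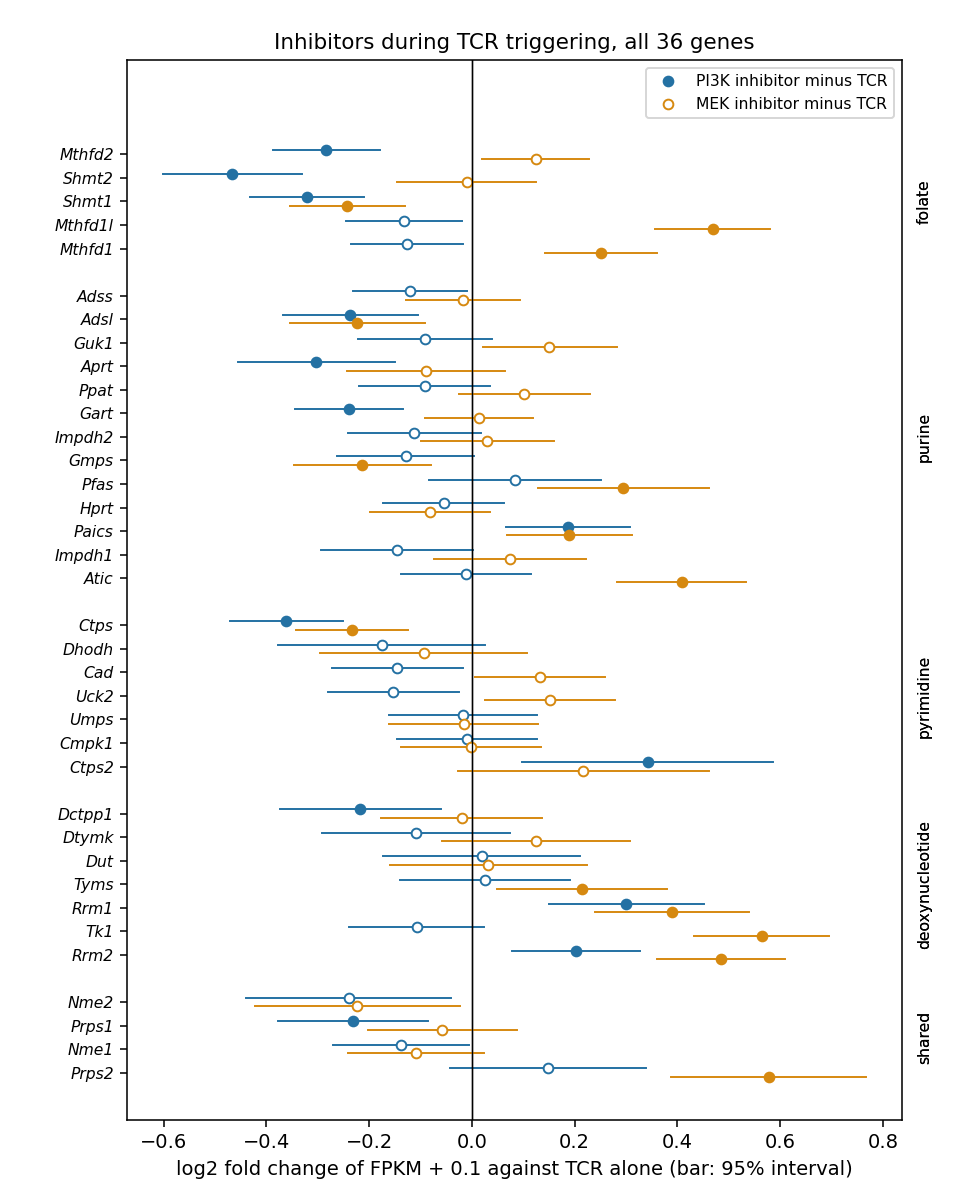
Log2 fold change of FPKM + 0.1 against TCR alone (x axis) for the PI3K inhibitor (blue) and the MEK inhibitor (orange), for the 36 genes grouped by role (y axis). Points are estimates from 3 cultures per group, bars 95% intervals, filled points adjusted p under 0.05. Shmt2 lies at -0.47 with the PI3K inhibitor and at -0.01 with the MEK inhibitor, and Tk1 at -0.11 and 0.56.

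Among the further pathway genes 10 of 65 were higher with the PI3K inhibitor and 12 lower, where 12.7% and 12.8% of all genes were. Past 2-fold were only Pnp2, a purine nucleoside phosphorylase, at 0.90, 0.91 and 1.18 FPKM against 0.00, 0.25 and 0.75 in TCR, and Nt5e, the surface nucleotidase CD73, at 1.23, 0.96 and 1.63 against 0.26, 0.37 and 0.51. Both were higher, at levels near the bottom of the table. The call of Pnp2 was lost without PI3K inhibitor replicate 3 (log2 1.70, adjusted p = 0.0619) and in a fit of the compared groups alone (adjusted p = 0.0585), and its log2 change went from 1.81 to 1.00 without TCR replicate 1 and to 2.54 without TCR replicate 3. Myc, a regulator of many genes of nucleotide synthesis, went from 124.6 ± 1.92 FPKM in Unstimulated to 290.4 ± 20.9 in TCR and stood at 223 ± 13 under the PI3K inhibitor and at 290.3 ± 13.8 under that of MEK. Atf4, which drives Mthfd2 and Shmt2 in other cells, went from 177 ± 5.21 to 491 ± 27.7 and stood at 392 ± 11.8 and 447 ± 21.3. The part of either factor was not tested.

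The third comparison asked the same of MEK inhibition, with the same limit that no culture received the inhibitor without peptide. Of the 36 genes 10 were higher with the MEK inhibitor than in TCR, 4 were lower and 22 did not pass. Of all genes 18.9% were higher and 18.2% lower, and the median log2 fold change was 0.05 for the 36 genes and 0.01 for all. None changed by more than 2-fold, where 3.49% of all genes did in either direction, and the estimates ran from -0.24 to 0.58. On the common FPKM sum the median of all genes lay at 0.26 and 30 members were called higher and 0 lower (limma). Relative to the median gene no member moved by more than 0.008, which that rescaling fixes in advance. On either scale 21 of the 36 lay above that gene, and 28 after quantile normalisation.

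Of the 7 deoxynucleotide genes 4 were higher with the MEK inhibitor, none lower (limma, also 0 at an unadjusted p under 0.05), and the median was 0.21. The shares over all genes were 18.9% and 18.2%. The summed FPKM of the class was 312 ± 0.65 against 264 ± 10.2 in TCR and 574 ± 34.3 in Unstimulated.

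Tk1 was 1.48-fold higher (log2 0.56, SE 0.06, adjusted p = 7.26e-06) and stood at 45.8% of its Unstimulated mean, against 30.9% in TCR. Rrm2 was 1.40-fold higher (log2 0.49, SE 0.06, adjusted p = 1.95e-05), at 35.9% against 25.7%. Rrm1 was 1.31-fold higher (log2 0.39, SE 0.07, adjusted p = 6.23e-04), at 52.1% against 39.8%. All 3 genes thus stayed closer to the TCR level than to the Unstimulated one.

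Tyms was at 10.4, 11.9 and 12.1 FPKM, each above the TCR cultures (log2 0.21, adjusted p = 0.0424). Its call was lost without TCR replicate 2 or 3 or MEK inhibitor replicate 2 or 3 (adjusted p = 0.0756, 0.133, 0.127 and 0.156). Quantile normalisation (adjusted p = 0.109) and a fit of the compared groups alone (adjusted p = 0.0761) lost it as well. Dut at 49.7, Dctpp1 at 65.3 and Dtymk at 29.0 FPKM did not pass. In the S phase list 10 of 12 genes were higher with the MEK inhibitor and none lower, where 18.9% and 18.2% of all genes were. E2f1 was at 12 ± 1.10 FPKM (log2 0.45, adjusted p = 0.00266). The part of the S phase genes and E2f1 in the deoxynucleotide result was not tested.

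Of the folate genes Mthfd1l and Mthfd1 were higher and Shmt1 lower. Mthfd1l (Entrez gene 270685, chromosome 10, 3973118 to 4167081) was at 39.3, 38.6 and 38.6 FPKM, above all 9 cultures of the other groups and 1.38-fold over TCR (log2 0.47, SE 0.05, adjusted p = 9.59e-06). Mthfd1 was at 46.7, 47.9 and 47.0 FPKM (log2 0.25, SE 0.05, adjusted p = 0.00151). Shmt1 was at 37.6, 40.4 and 38.4 FPKM (log2 -0.24, SE 0.05, adjusted p = 0.00222), but its log2 change was 0.02 on the common FPKM sum. Shmt2 did not pass (log2 -0.01, 95% interval -0.15 to 0.13). Mthfd2 did not pass either (log2 0.12, adjusted p = 0.0601), although with replicate number as a block in the model it did (adjusted p = 0.049).

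In the purine class Atic, Pfas and Paics were higher and Adsl and Gmps lower. Atic was 1.33-fold higher (log2 0.41, SE 0.06, adjusted p = 9.81e-05) and stood at 82.9% of its Unstimulated mean against 62.4% in TCR. Pfas was at 15.5 ± 0.81 FPKM (log2 0.30, adjusted p = 0.00858). Paics was at 69.8 ± 2.90 FPKM (log2 0.19, adjusted p = 0.0168), a call lost without TCR replicate 1 or MEK inhibitor replicate 3 (adjusted p = 0.0573 and 0.08).

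Adsl was at 68.4 ± 5.72 and Gmps at 27.9 ± 0.10 FPKM (log2 -0.22 and -0.21, adjusted p = 0.0108 and 0.0152). On the common FPKM sum both turned, to 0.04 and 0.05. The call of Adsl was lost without MEK inhibitor replicate 3 (adjusted p = 0.0633) and that of Gmps without TCR replicate 2 (adjusted p = 0.0744). The other 8 purine genes did not pass, with means of 34.0 FPKM for Ppat, 71.3 for Gart, 70.0 for Adss, 61.9 for Impdh1, 137 for Impdh2, 30.6 for Guk1, 117 for Hprt and 145 for Aprt.

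Ctps was the pyrimidine gene that passed, 1.18-fold lower with the MEK inhibitor (log2 -0.23, SE 0.05, adjusted p = 0.00266), though at 0.03 on the common FPKM sum. Cad at 40.8, Umps at 26.2, Dhodh at 9.75, Ctps2 at 2.64, Cmpk1 at 69.6 and Uck2 at 119 FPKM did not pass. Uck2 was called higher without MEK inhibitor replicate 1 (log2 0.21, adjusted p = 0.018).

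Prps2 had the largest change of all 36 genes with the MEK inhibitor, 1.49-fold higher (log2 0.58, SE 0.09, adjusted p = 1.72e-04), with every culture above the TCR cultures and below the Unstimulated ones. Prps1 at 46.5, Nme1 at 180.2 and Nme2 at 526 FPKM did not pass. Among the further pathway genes 11 of 65 were higher and 9 lower, where 18.9% and 18.2% of all genes were. None of the 65 changed by more than 2-fold, where 3.49% of all genes did in either direction.

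Because both inhibitor groups were set against the same TCR cultures, the difference between the inhibitors was tested directly. Of the 36 genes 15 were higher under MEK than under PI3K inhibition, and none was lower (limma, also 0 at an unadjusted p under 0.05). Of all genes 14.5% were higher and 14.4% lower. The median log2 difference was 0.19 for the 36 genes and -0.01 for all genes, and 33 of the 36 lay above the median gene. No member differed by more than 2-fold, where 3.09% of all genes did in either direction. On the common FPKM sum, where the median of all genes was 0.07, 24 members were higher and 0 lower.

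The genes that differed came from every class, with 4 of 5 folate, 6 of 13 purine, 2 of 7 pyrimidine, 2 of 7 deoxynucleotide and 1 of 4 shared genes. Tk1 differed most, 1.59-fold (log2 0.67, SE 0.06, adjusted p = 1.65e-06), from 23.4 ± 0.22 FPKM with the PI3K inhibitor to 37.4 ± 2.62 with the MEK inhibitor. Rrm2 was also higher (log2 0.28, adjusted p = 0.00218), whereas the Rrm1 cultures overlapped (log2 0.09, 95% interval -0.06 to 0.24).

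Every folate gene other than Shmt1 was higher with the MEK inhibitor. Mthfd1l was 1.52-fold higher (log2 0.60, SE 0.05, adjusted p = 1.01e-06), Shmt2 1.37-fold (log2 0.46), Mthfd2 1.33-fold (log2 0.41) and Mthfd1 1.30-fold (log2 0.38). Shmt1 overlapped between the groups (log2 0.08, 95% interval -0.03 to 0.19). Summed over the 5 genes, FPKM was 408 ± 9.85 under PI3K inhibition and 543 ± 14.3 under MEK inhibition.

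In the purine class Atic differed most (1.34-fold, log2 0.42, SE 0.06, adjusted p = 8.64e-05), followed by Gart and Guk1 (log2 0.25 and 0.24, adjusted p = 0.00128 and 0.00768). Impdh1, Aprt and Ppat also passed (log2 0.22, 0.21 and 0.19, adjusted p = 0.0262, 0.0379 and 0.0245), but each lost its call when single libraries were left out. Without PI3K inhibitor replicate 2 the adjusted p was 0.125 for Impdh1 and 0.157 for Aprt. Without PI3K inhibitor replicate 3 it was 0.104 for Ppat and 0.0903 for Aprt. Without MEK inhibitor replicates 2 or 3 it was 0.0824 and 0.107 for Impdh1, 0.0728 and 0.136 for Aprt, and 0.0693 and 0.0923 for Ppat, and without MEK inhibitor replicate 1 it was 0.0518 for Aprt. Pfas did not pass (adjusted p = 0.056) but did with replicate number as a block (adjusted p = 0.0374).

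Uck2 was the pyrimidine gene that differed most, at 102, 94.2 and 92.8 FPKM with the PI3K inhibitor and 110.0, 130.0 and 117 with the MEK inhibitor (log2 0.31, SE 0.06, adjusted p = 0.00129). Cad was also higher (log2 0.28, adjusted p = 0.00270). Prps2 was 1.35-fold higher (log2 0.43, SE 0.09, adjusted p = 0.00213). Dctpp1 lay just outside the threshold (log2 0.20, adjusted p = 0.057) and inside it with the block (adjusted p = 0.0202). Without MEK inhibitor replicate 2 it was also inside (adjusted p = 0.044), as were Tyms without MEK inhibitor replicate 1 (adjusted p = 0.032) and Dtymk without PI3K inhibitor replicate 1 (adjusted p = 0.01).

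Of the 65 further pathway genes 15 were higher under MEK than under PI3K inhibition and 7 lower, 10 and 2 of them folate and one-carbon genes. The shares over all genes were 14.5% and 14.4%. Only Cmpk2, a mitochondrial UMP and CMP kinase, passed 2-fold (log2 1.02, adjusted p = 0.0146), at 0.53, 0.32 and 0.80 FPKM against 0.80, 1.11 and 1.72. Its levels were low, the groups met at 0.80 FPKM, and the call was lost without MEK inhibitor replicate 3 (log2 0.75, adjusted p = 0.0805) or PI3K inhibitor replicate 2 (log2 0.74, adjusted p = 0.0757).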

How the data were processed

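RNA of 12 CTL cultures was sequenced as paired ends from a stranded mRNA library. The authors aligned reads to mm10 with STAR 2.4.2a, counted them per RefSeq gene with Subread 1.5.0, removed genes with low counts, scaled by TMM and deposited FPKM from the edgeR RPKM function with summed exon length, without pooling replicates. The authors' own tests on counts were not used. Unassigned value columns numbered 0.

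FPKM were analysed as log2(FPKM + 0.1), which understates changes of low genes. limma 3.58.1 in R 4.3.3 fitted group means over all 12 cultures and 11022 genes together (eBayes with trend), with Benjamini-Hochberg adjustment over all genes. Calls used an adjusted p under 0.05, or that with a change of more than 2-fold as in the study. The limma p-values set each mean difference against the spread between these cultures, estimated over the 4 groups and moderated over all genes. Ratios were compared by exact permutation (SciPy 1.17.1, Python 3.11.15). On simulated data for TCR against Unstimulated, with 200 of 11022 genes changed, 63.6%, 95.5% and 100% were recovered at log2 changes of 0.5, 1 and 2, with 7 false calls. The simulated noise was normal and independent between genes. In the real cultures 33.6% of genes were called higher and 34.9% lower, so these recovery rates do not carry over to them.

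The members, gene lists, motifs and tests were chosen with earlier results of these data known. Described in full, per class, are the 2 genes with the largest called change for TCR, the largest called change per inhibitor comparison, and the isoenzymes. Of further pathway genes, up to 2 past both thresholds per comparison are named. Positions are from GENCODE M21 (GRCm38), matched by Entrez gene.

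Same-numbered cultures deviated together in the inhibitor comparisons. Correlations across 9899 genes were 0.451, 0.376 and 0.239 for the PI3K inhibitor and TCR. They were 0.153, 0.122 and 0.182 for the MEK inhibitor and TCR, and 0.137, 0.147 and 0.149 between the inhibitors. The replicate number was therefore taken as a sign of pairing there. The reported fits and ratio tests did not use this pairing, and a model with the replicate block was run as an alternative. Low FPKM values did not resolve to whole reads. Alternatives were other pseudocounts, leaving out genes whose mean was under 1, rescaling to equal FPKM sums (TPM), a model with the replicate block, quantile normalisation, no trend, the compared groups alone, and each library left out in turn.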

Additional observations from a re-analysis of the deposited data

How the results depend on the processing

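With pseudocounts of 1 or 0.01, a mean FPKM of at least 1, or the replicate block, no member called in any comparison lost its call (adjusted p under 0.05) or changed sign. The block added the calls given above for Mthfd2, Pfas and Dctpp1 and left the counts at 9 higher and 17 lower for TCR against Unstimulated. There the same-numbered correlations were 0.105, 0.153 and 0.004, so the numbers are no more than a hint of pairing in that comparison. Scaling mattered most. On the common FPKM sum the counts called higher and lower were 4 and 27 (0 and 9 past 2-fold) for TCR, 10 and 2 for the PI3K inhibitor, 30 and 0 for the MEK inhibitor, and 24 higher between the inhibitors. Signs of called members turned there for TCR in Shmt1 (-0.10), Adsl (-0.11), Guk1 (-0.12), Prps1 (-0.16) and Nme2 (-0.07), and for the MEK inhibitor in Shmt1 (0.02), Adsl (0.04), Gmps (0.05) and Ctps (0.03). Uncalled members whose sign turned numbered 6 for TCR, all then called lower, which were Impdh2 (-0.37), Ppat (-0.31), Gart (-0.37), Gmps (-0.40), Aprt (-0.29) and Dhodh (-0.35), with 18 for the PI3K inhibitor, 11 for the MEK inhibitor and 1 between the inhibitors. After quantile normalisation 1 called member turned for TCR, Nme2 (-0.10), and 4 uncalled ones, Impdh2 (-0.15), Gart (-0.08), Gmps (-0.05) and Aprt (-0.08), with 7, 10 and 2 uncalled members in the other comparisons. Quantile normalisation left 0 genes higher past 2-fold there and 4 lower with the PI3K inhibitor. A pseudocount of 1 left 3 genes lower past 2-fold for TCR, and a fit of the compared groups alone left 2 higher with the PI3K inhibitor. Leaving out single libraries gave 1 to 2 higher and 4 to 5 lower past 2-fold for TCR (2 higher without TCR replicate 2), 1 to 4 higher with the PI3K inhibitor, and log2 changes from -0.00 to 0.11 for the uncalled Impdh2 (lowest without Unstimulated replicate 2, highest without Unstimulated replicate 3) and from -0.08 to 0.02 for the uncalled Nme1 (0.02 without TCR replicate 2, but 0.00 if Unstimulated replicate 3 was left out). The causes were not tested. With 3 cultures per group and unknown read depth, changes near 0.2 on the log2 scale lie at the limit of what could be called.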
